A study of Mus musculus with 54 samples.

Results

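Interferon-stimulated antiviral effector genes code for the proteins with which a cell meets a viral infection, and 34 of them were followed through 15 conditions of mouse peritoneal macrophages. The 34 genes were chosen by name from known families (IFIT, OAS and Mx proteins, ISG15 and its conjugation, enzymes acting on nucleotides and RNA, the PARP9 group and further effectors), from 39179 gene identifiers in the count files. Earlier results of these data were known when the genes were chosen, so shares beside all genes are descriptive and no independent test. The macrophages were adherent peritoneal exudate cells of C57BL/6 mice, drawn to the peritoneum with thioglycolate. In the polarization experiment cells of 3 mice were kept for 24 h without stimulus (M0), with LPS (100 ng/ml) plus IFN-γ (50 ng/ml; M1-like) or with IL-4 (10 ng/ml; M2-like), and each of the 9 cell samples was sequenced in 2 technical replicates. In the reprogramming experiment 12 conditions had 3 replicates each: macrophages in the 3 states M0, M1-like and M2-like left untransfected, the same 3 after mock transfection with the DharmaFECT reagent alone, and M2-like macrophages transfected with siRNA pools. These pools were a negative control siPool, siPools against E2f1, Myc, Pparg or Stat6 alone, and a combination of all 4, whose cells are called iM1 macrophages. The siRNAs against Myc came from another supplier than those against the other 3 targets, so the target and the source of the siRNA cannot be told apart in the conditions that hold them. Transfected cells were harvested 48 h after transfection, which for M2-like cells meant culture without IL-4. The methods give 24 h of polarization for profiles without transfection and do not say whether this holds for the untransfected cells sequenced beside the transfected ones, so the transfection reagent and time in culture cannot be told apart in comparisons of mock with untransfected cells. For M2-like cells, the culture without IL-4 after transfection cannot be told apart from these either. The labels do not say whether the replicates of the reprogramming experiment came from separate animals. The methods speak of biological replicates, iM1 macrophages included, for the RNA of quantitative PCR, but not for sequencing, so p-values measure the spread between these libraries, whose source is not given.

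As background, a cell that senses microbial nucleic acid or LPS secretes type I interferon, which binds the receptor of IFNAR1 and IFNAR2 on the same and on neighbouring cells. Receptor-bound JAK1 and TYK2 kinases then activate a complex of transcription factors that holds STAT2 and IRF9 (ISGF3), and this complex binds the interferon-stimulated response element (ISRE) in the promoters of the effector genes. IFN-γ uses its own receptor, and its signal reaches a different promoter element (GAS). In macrophages, LPS itself leads to secretion of interferon-β through TLR4 and TICAM1.

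Promoter sequences are shown first because the ISRE is the element through which ISGF3 is known to act. The RefSeq promoter table (GRCm38.p6, 250 bases before to 50 bases after each start) held 27 of the 34 genes. The ISRE core, GAAA followed by any 2 bases and again GAAA, searched on both strands, was in the promoters of 13 of these 27 genes (48.1%, 95% Wilson interval 30.7 to 66), while 3.99% of 27025 genes in the table had it. The GAS element TTCNNNGAA was in 5 of 27 (18.5%, interval 8.18 to 36.7, against 9.55% of genes). The E-box CACGTG, which MYC is known to bind, was in 0 of 27 (interval 0 to 12.5%, against 8.09% of genes). For GAS and E-box the interval holds the share of all genes. The core can overlap itself, and overlapping copies are drawn as 1 stretch. The 150 bases before the start are given for 6 genes with the ISRE core and for Epsti1, the gene with the smallest change in M1-like macrophages of the polarization experiment, which has none in its window. Epsti1 was thus picked by its outcome. All 34 genes were higher in those M1-like macrophages, so the other genes without the core rose as well. Whether the core goes with the size of a change was not tested. Capitals mark the core on either strand, and each sequence reads 5′ to 3′ along the gene.
Isg15, chr4:156200819-156200968, strand minus: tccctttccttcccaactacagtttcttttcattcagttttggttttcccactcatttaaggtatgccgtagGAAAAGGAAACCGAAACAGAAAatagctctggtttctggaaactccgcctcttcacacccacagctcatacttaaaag
Rsad2, chr12:26456453-26456602, strand minus: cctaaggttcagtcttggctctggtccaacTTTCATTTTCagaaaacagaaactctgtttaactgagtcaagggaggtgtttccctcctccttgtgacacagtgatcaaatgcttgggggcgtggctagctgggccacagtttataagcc
Oas1a, chr5:120907526-120907675, strand minus: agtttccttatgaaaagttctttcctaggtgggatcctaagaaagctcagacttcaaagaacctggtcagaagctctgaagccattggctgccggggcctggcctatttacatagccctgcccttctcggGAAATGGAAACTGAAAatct
Oas1g, chr5:120887614-120887763, strand minus: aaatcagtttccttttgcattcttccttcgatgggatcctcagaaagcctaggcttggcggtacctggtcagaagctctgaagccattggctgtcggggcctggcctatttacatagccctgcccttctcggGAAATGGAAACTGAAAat
Bst2, chr8:71537473-71537622, strand minus: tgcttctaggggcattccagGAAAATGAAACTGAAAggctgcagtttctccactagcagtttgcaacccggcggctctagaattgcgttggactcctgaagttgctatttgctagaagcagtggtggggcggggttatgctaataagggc
Ddx60, chr8:61927937-61928086, strand plus: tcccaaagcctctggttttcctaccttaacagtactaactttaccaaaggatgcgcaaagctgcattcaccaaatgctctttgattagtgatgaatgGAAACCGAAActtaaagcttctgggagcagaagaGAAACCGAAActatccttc
Epsti1, chr14:77904089-77904238, strand plus: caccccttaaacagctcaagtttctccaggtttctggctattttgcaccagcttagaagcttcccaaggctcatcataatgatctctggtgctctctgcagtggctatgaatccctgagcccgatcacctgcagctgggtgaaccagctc
In Isg15, 3 overlapping cores form 1 run, and Ddx60 has 2 cores apart from each other. Oas1a and Oas1g, neighbours on chromosome 5, carry the same stretch of 2 overlapping cores close to their starts.

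Of the 34 genes, 20 lie in 7 clusters with gaps under 200 kb. Ifit2, Ifit3, Ifit1bl1, Ifit3b and Ifit1 lie on chromosome 19 (34550694 to 34650009, GRCm38). On chromosome 5, Oas2, Oas3, Oas1g and Oas1a lie between 120730333 and 120907521, and Oasl2 and Oasl1 between 114896936 and 114937915. Rsad2 and Cmpk2 are neighbours on chromosome 12, and chromosome 16 holds the pair Mx1 and Mx2 and the trio Parp14, Dtx3l and Parp9. Copies within clusters are alike enough to share reads: of the distinct 50-base stretches of Oas1a transcripts 57.6% also occur in other genes, above all Oas1g, and for Ifit3 the share is 51.2%, all in Ifit3b. It is 47% for Phf11b, 45.7% for Oas1g and 45.4% for Ifit3b. Values of these 5 genes are uncertain, since how reads with several matches were counted is not given in the sources used here. Parp9 and Dtx3l overlap on opposite strands, as do Oasl1, Ifi35, Rtp4 and Trim30a with other genes, and Uba7 overlaps another gene on its own strand.

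Libraries held 19714994 to 29880494 counted reads in the polarization experiment and 13421854 to 19704195 in the reprogramming experiment. All 8 macrophage markers were above 1 CPM in every condition, while all 7 T and NK cell markers had condition means below 1 CPM. Each other list of non-macrophage markers held genes above 1 CPM. The highest condition means were 129.5 CPM for Col1a1 (mesothelium and fibroblast) and 38.2 CPM for Siglecf (eosinophil and mast cell). They were 12.8 CPM for S100a8 (neutrophil), 8.26 CPM for Cd79a (B cell) and 2.58 CPM for Zbtb46 (dendritic cell). Relative to the mean of the negative control siPool, the targeted genes stood at 25.2% ± 4.05 (E2f1), 38% ± 8.01 (Myc), 21.9% ± 2.57 (Pparg) and 27.3% ± 5.79 (Stat6; SD, n = 3 each) in the single knockdowns, and at 60.4%, 39.6%, 28.3% and 54% in iM1 macrophages. All 34 genes passed the filter on low counts in both experiments. Ifi44 and Ifit1bl1 did so in the polarization experiment through the M1-like samples, since their M0 samples held 3 and 4 reads in all. Levels are given as CPM, counted reads scaled by the TMM library size, and a gene was called when its adjusted p was below 0.05 (edgeR's quasi-likelihood test, Benjamini-Hochberg over all genes tested). The experiments were scaled separately and differ in read length, so levels are compared within each.

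Within the polarization experiment the mean log2 CPM of the 34 genes was highest in M1-like macrophages, and within the reprogramming experiment it was highest in iM1 and lowest in untransfected M2-like macrophages. In the polarization experiment the 34 genes took 0.0779% ± 0.00389 of all counted reads in M0, 0.075% ± 0.00162 in M2-like and 1.72% ± 0.164 in M1-like macrophages (SD, n = 3). In the reprogramming experiment they took 0.053% ± 0.00424 in untransfected M2-like, 0.23% ± 0.0582 in M2-like mock, 0.602% ± 0.0413 in negative control siPool and 0.89% ± 0.117 in iM1 macrophages. The untransfected M1-like macrophages of the second experiment, at 0.31% ± 0.0387, stood below the negative control siPool.

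**Figure D1:**
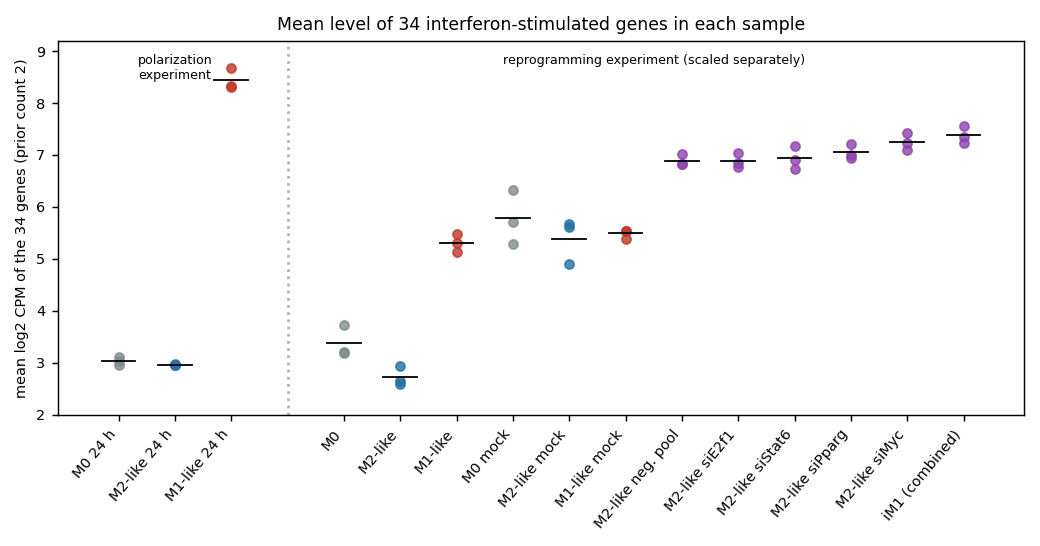
Mean log2 CPM of the 34 genes (y axis, prior count 2) in each sample (points) of the 15 conditions (x axis), with the condition mean as a line and the 2 experiments split by a dotted line. M1-like samples at 24 h lie between 8.32 and 8.68, M2-like mock samples between 4.9 and 5.66 and negative control siPool samples between 6.82 and 7.02.

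The libraries of 2 mock conditions varied more than the others. The mean log2 CPM of the 34 genes ran from 5.29 to 6.33 in M0 mock and from 4.9 to 5.66 in M2-like mock, where replicate 1 was the low one. In M1-like mock it ran only from 5.39 to 5.55. Within M0 mock, replicate 1 was the low and replicate 3 the high library.

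In M1-like macrophages of the polarization experiment each of the 34 genes was higher than in M0, against 35.4% of all genes tested that were called higher. The median log2 fold change was 4.65, a 25.1-fold difference, beside -0.04 over all genes tested, and the values of the 2 groups did not overlap for any of the 34 (38.4% of all genes were higher without overlap). In bulk samples such a difference can come from more RNA per cell or from more cells of a type, which cannot be told apart. The 8 macrophage markers did not move one way: 4 were called higher in M1-like cells (Adgre1, Mertk, Fcgr1 and Cd14) and 3 lower (Lyz2, Cd68 and Itgam), and their summed CPM, most of it Lyz2, was 16160 to 17440 in M0 and 10390 to 11380 in M1-like samples. The eosinophil and mast cell list summed to 16.5 to 18.8 CPM in M0 and 1.54 to 2.67 CPM in M1-like samples, most of it in M0 Siglecf, at a mean of 16.4 and 0.568 CPM. This list did not move one way either: Siglecf and Cpa3 were called lower and Kit higher (log2 fold change 1.49 ± 0.39 (SE), adjusted p = 0.00444). The part of these markers in the result was not tested.

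The IFIT proteins, which bind viral RNA lacking the host's cap methylation, gave some of the largest differences. Ifit1 stood at 2.54, 2.74 and 2.98 CPM in M0 and 659, 644 and 877 CPM in M1-like cells of mice 1, 2 and 3, a log2 fold change of 8.04 ± 0.18 (SE), adjusted p = 2.44e-12. Ifit2 rose from 2.52, 2.98 and 3.16 CPM to 2039, 2094 and 2632 CPM (log2 fold change 9.61 ± 0.17 (SE), adjusted p = 4.87e-13). Every M1-like sample stood far above every M0 sample for both genes. Ifi44, a cytoplasmic interferon-induced protein, was read only 2, 0 and 1 times in the M0 samples and stood at 93, 110.0 and 139 CPM in M1-like cells.

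Isg15, the ubiquitin-like protein that is attached to other proteins and also secreted, rose from 3.56, 3.17 and 4.26 CPM to 651, 649 and 810.0 CPM (log2 fold change 7.58 ± 0.14 (SE), adjusted p = 5.06e-13). Usp18, the protease that removes ISG15 and dampens the interferon receptor, rose from 5.8, 6.21 and 7.24 CPM to 304, 315 and 398 CPM (log2 fold change 5.72 ± 0.12 (SE), adjusted p = 2.07e-12). Uba7, the enzyme that activates ISG15, was already at 38.6, 38.5 and 37.3 CPM in M0 and reached 272, 260.1 and 343 CPM. Its log2 fold change of 2.94 ± 0.10 (SE), adjusted p = 1.2e-10 was among the smaller ones, and that of Herc6, the ISG15 ligase of mice, was 4.45 ± 0.10 (SE), adjusted p = 3.49e-12.

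Rsad2 codes for viperin, which makes a chain-terminating nucleotide that stops viral RNA synthesis. It rose from 17.2, 19.2 and 20 CPM to 3148, 2689 and 3686 CPM (log2 fold change 7.40 ± 0.13 (SE), adjusted p = 4.96e-13) and had the highest mean CPM of the 34 genes in M1-like samples. Mx1, a dynamin-like GTPase that traps viral nucleoproteins and that is defective in C57BL/6 and most inbred strains, rose from 2.96, 2.56 and 2.7 CPM to 799, 795 and 1012 CPM (log2 fold change 8.31 ± 0.14 (SE), adjusted p = 3.49e-13). The OAS enzymes make 2′-5′-linked oligoadenylates that activate RNase L, and Oas2 rose from 9.48, 11.5 and 11.2 CPM to 212, 209.5 and 272 CPM (log2 fold change 4.42 ± 0.12 (SE), adjusted p = 1.48e-11). By role, the median log2 fold change was 8.04 for the 5 IFIT genes, 8.17 for the 2 Mx genes, 4.49 for the 6 OAS family genes and 3.71 for Parp9, Dtx3l and Parp14. The smallest difference was that of Epsti1, from 21.8, 22.2 and 22.2 CPM to 48.3, 52.6 and 73 CPM (log2 fold change 1.39 ± 0.13 (SE), adjusted p = 1.17e-06), still without overlap of the mice.

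In M2-like macrophages of the polarization experiment 2 of the 34 genes were lower than in M0 and 0 were higher, against 14.4% and 13.5% of all genes, and the median log2 fold change was 0.03. The 2 genes were the neighbours Oas2 and Oas3. Oas2 stood at 9.48, 11.5 and 11.2 CPM in M0 and 3.47, 4.21 and 4.24 CPM in M2-like samples (log2 fold change -1.43 ± 0.13 (SE), adjusted p = 1.48e-05). Oas3 stood at 34, 41.7 and 35 CPM and 10.7, 15.6 and 15.8 CPM (log2 fold change -1.39 ± 0.13 (SE), adjusted p = 2.13e-05), and in neither gene did the mice overlap. Because the same 3 mice gave both groups, the fit with the mouse as a block was also made and called 6 genes, 3 higher and 3 lower. Directly against M2-like cells, M1-like cells had 34 genes higher and 0 lower (34.6% and 38.1% of all genes; median log2 fold change 5.01). Without mouse 1 of the M2-like group 4 genes were called between M2-like and M0, and DESeq2 called 7, of which 2 were higher.

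The untransfected macrophages of the reprogramming experiment answered the same 2 questions in other samples. In M1-like cells 30 genes were higher than in M0 and 1 was lower (29% and 28.7% of all genes), with a median log2 fold change of 1.76 beside 0.01 over all genes. Ifit2 rose from 8.35, 2.85 and 4.43 CPM to 275, 339.8 and 295 CPM (log2 fold change 5.89 ± 0.41 (SE), adjusted p = 6.4e-14). Rsad2 rose from 22.9, 13.7 and 15.8 CPM to 389, 370.1 and 277 CPM (log2 fold change 4.31 ± 0.23 (SE), adjusted p = 5.55e-17). Isg15 rose less, from 7.32, 3.23 and 4.57 CPM to 24.6, 32.1 and 30.7 CPM (log2 fold change 2.55 ± 0.39 (SE), adjusted p = 1.4e-06), and Oas2 stood at 22.8, 12.9 and 11.9 CPM in M0 and 17.9, 29.4 and 20.9 CPM in M1-like samples, groups that overlapped (log2 fold change 0.53 ± 0.21 (SE), adjusted p = 0.0352). Epsti1 fell from 28, 26.5 and 29.9 CPM to 19.7, 23.9 and 22.9 CPM (log2 fold change -0.34 ± 0.14 (SE), adjusted p = 0.0353), whereas it was higher in M1-like cells at 24 h. The 3 genes without a call were Isg20, an RNA exonuclease, Samd9l and Ifit3b. Beside these values, B cell markers summed to 8.73 to 31.1 CPM in M0 and 0.67 to 1.47 CPM in M1-like samples, and mesothelial and fibroblast markers to 63.8 to 118 CPM and 18.1 to 43.3 CPM. Their part in the result was not tested. Directly against M2-like cells, M1-like cells had 31 genes higher and 0 lower (31.3% and 30.2% of all genes; median log2 fold change 2.49).

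In M2-like cells 9 genes were lower than in M0 and 0 were higher (9.19% and 10.7% of all genes), and the median log2 fold change was -0.55. The 9 genes were 5 of the 6 OAS family genes (Oas1a, Oas1g, Oas2, Oas3 and Oasl2), Usp18, Mx2, Rtp4 and Xaf1. Without the filter on low counts 19 genes were called lower, in a fit whose share of all genes is not given here. Oas3 stood at 83, 52.6 and 48.6 CPM in M0 and 12.8, 10.7 and 8.79 CPM in M2-like samples (log2 fold change -2.51 ± 0.25 (SE), adjusted p = 5.8e-09). Rtp4, a chaperone of G protein-coupled receptors that also binds viral RNA, stood at 40.5, 18 and 17.3 CPM and 4.87, 5.74 and 4.89 CPM (log2 fold change -2.28 ± 0.31 (SE), adjusted p = 2.35e-06). Oas2 stood at 22.8, 12.9 and 11.9 CPM and 5.15, 4.32 and 2.71 CPM (log2 fold change -1.96 ± 0.27 (SE), adjusted p = 2.1e-06). In all 3 genes M0 replicate 1 was the highest, and the groups did not overlap. Oas2 and Oas3 were thus lower in IL-4-treated cells in both experiments, which share no samples. They make up both of the 2 genes called in the first and 2 of the 9 called in the second.

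**Figure D2:**
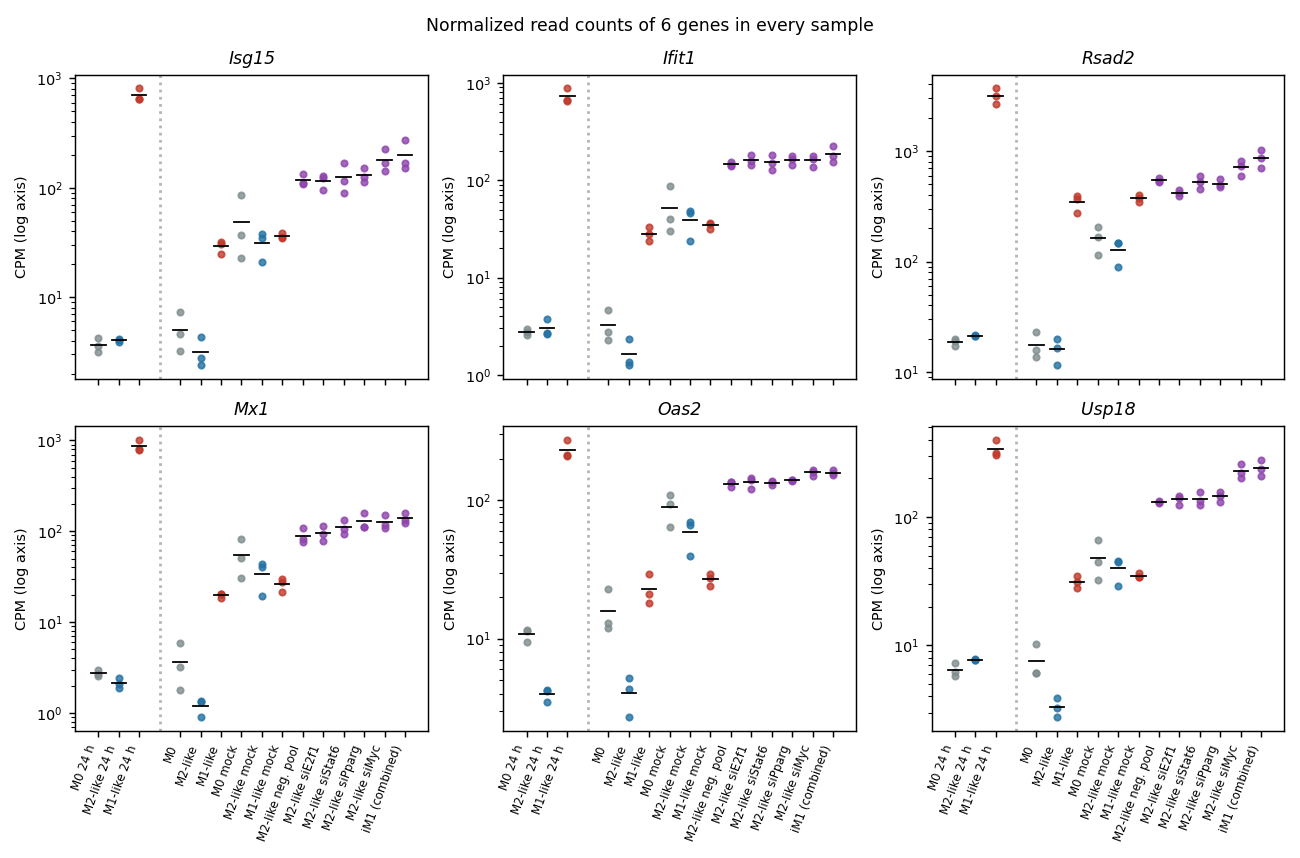
CPM (y axis, log scale) of Isg15, Ifit1, Rsad2, Mx1, Oas2 and Usp18 in every sample (points) of the 15 conditions (x axis), with condition means as lines. In each gene the M2-like mock samples lie above the untransfected M2-like samples and the negative control siPool samples above the mock samples, while M1-like and M1-like mock samples lie close together.

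Mock-transfected M0 and M2-like cells had higher antiviral genes than untransfected ones, and no difference was called in M1-like cells. All 34 genes were higher in M0 mock than in M0 (11.7% of all genes were called higher and 8.66% lower), with a median log2 fold change of 2.37, or 5.17-fold, and without overlap of the libraries in any of them (18.3% of all genes). In M2-like mock 32 of 34 genes were higher than in M2-like cells, against 1.67% of all genes called higher and 0.0988% called lower. These 32 are among 237 genes called higher in that comparison. The median log2 fold change was 2.58, or 5.98-fold, the libraries did not overlap in any of the 34 genes (6.45% of all genes were higher without overlap), and Ifit1bl1 and Phf11b were the genes without a call.

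In M2-like cells Isg15 stood at 4.36, 2.77 and 2.38 CPM untransfected and 21.1, 34.6 and 38 CPM after mock transfection (log2 fold change 3.31 ± 0.42 (SE), adjusted p = 1.26e-06). Mx1 stood at 1.36, 0.902 and 1.32 CPM and 19.2, 40 and 43.1 CPM (log2 fold change 4.83 ± 0.43 (SE), adjusted p = 7.91e-10). Ifit3 rose from 2.22, 0.773 and 1.12 CPM to 27.5, 75.4 and 78.8 CPM (log2 fold change 5.48 ± 0.48 (SE), adjusted p = 6.86e-10). In each of them mock replicate 1 was the lowest of the 3 mock libraries and still above every untransfected library. Ifit3b and Ifi44 had the largest fitted log2 fold changes (6.34 and 5.57), which rest on only 4 and 6 reads over the 3 untransfected libraries. Rtp4 rose from 4.87, 5.74 and 4.89 CPM to 103, 184 and 202 CPM (log2 fold change 4.97 ± 0.30 (SE), adjusted p = 3.67e-13).

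In M0 cells Isg15 rose from 7.32, 3.23 and 4.57 CPM to 22.7, 37.3 and 85.4 CPM (log2 fold change 3.29 ± 0.38 (SE), adjusted p = 8.34e-08) and Ifit2 from 8.35, 2.85 and 4.43 CPM to 106, 185 and 388 CPM (log2 fold change 5.46 ± 0.41 (SE), adjusted p = 1.43e-11). Mock replicate 3 was the highest in both genes. The sum of mesothelial and fibroblast markers was 63.8 to 118 CPM in M0 and 109.6 to 172.7 CPM in M0 mock, and 59.2 to 201.6 CPM in M2-like and 87.5 to 148.9 CPM in M2-like mock libraries. Their part in the result was not tested.

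In M1-like cells 0 of 34 genes were called between mock and untransfected cells by edgeR and 0 by DESeq2, 0 had an unadjusted p below 0.05, and edgeR called 0% of all genes. The median log2 fold change was 0.17. Isg15 stood at 24.6, 32.1 and 30.7 CPM untransfected and 35.2, 34.9 and 38.9 CPM after mock transfection, and Rsad2 at 389, 370.1 and 277 CPM and 399, 379 and 346 CPM. The fitted log2 fold changes ran from -0.06 to 0.63.

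The difference between these mock effects was tested itself. The mock effect in M1-like cells was smaller than that in M0 cells for 33 of 34 genes (5.85% of all genes were called in that direction and 3.22% in the other), with a median difference of -2.15 on the log2 scale. For Rsad2 the difference of the log2 fold changes was -3.11 ± 0.29 (SE), adjusted p = 1.09e-08, and for Ifit2 it was -5.27 ± 0.50 (SE), adjusted p = 1.28e-08. Ifit1bl1 was the gene without a call. The same contrast, read the other way, is the signed M1-like against M0 log2 fold change, which was lower among mock than among untransfected cells for these 33 genes. For Oas2 it was 0.53 untransfected and -1.73 among mock cells. The mock effects in M2-like and M0 cells differed for 3 genes, all larger in M2-like cells (2.41% of all genes), namely Oas2 (1.36 ± 0.33 (SE), adjusted p = 0.0103), Oas3 (1.89 ± 0.32 (SE), adjusted p = 0.00037) and Rtp4 (2.10 ± 0.39 (SE), adjusted p = 0.000883). The median difference over the 34 genes was 0.03. Without M0 mock replicate 3 there were 5 such genes. Read the other way, the 3 genes were lower in M2-like than in M0 cells when untransfected, and less so after mock transfection. These log2 fold changes were -1.96 and -0.60 for Oas2, -2.51 and -0.63 for Oas3 and -2.28 and -0.18 for Rtp4. None of the 3 was called between M2-like mock and M0 mock. M2-like mock cells were also kept without IL-4 after transfection.

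**Figure D3:**
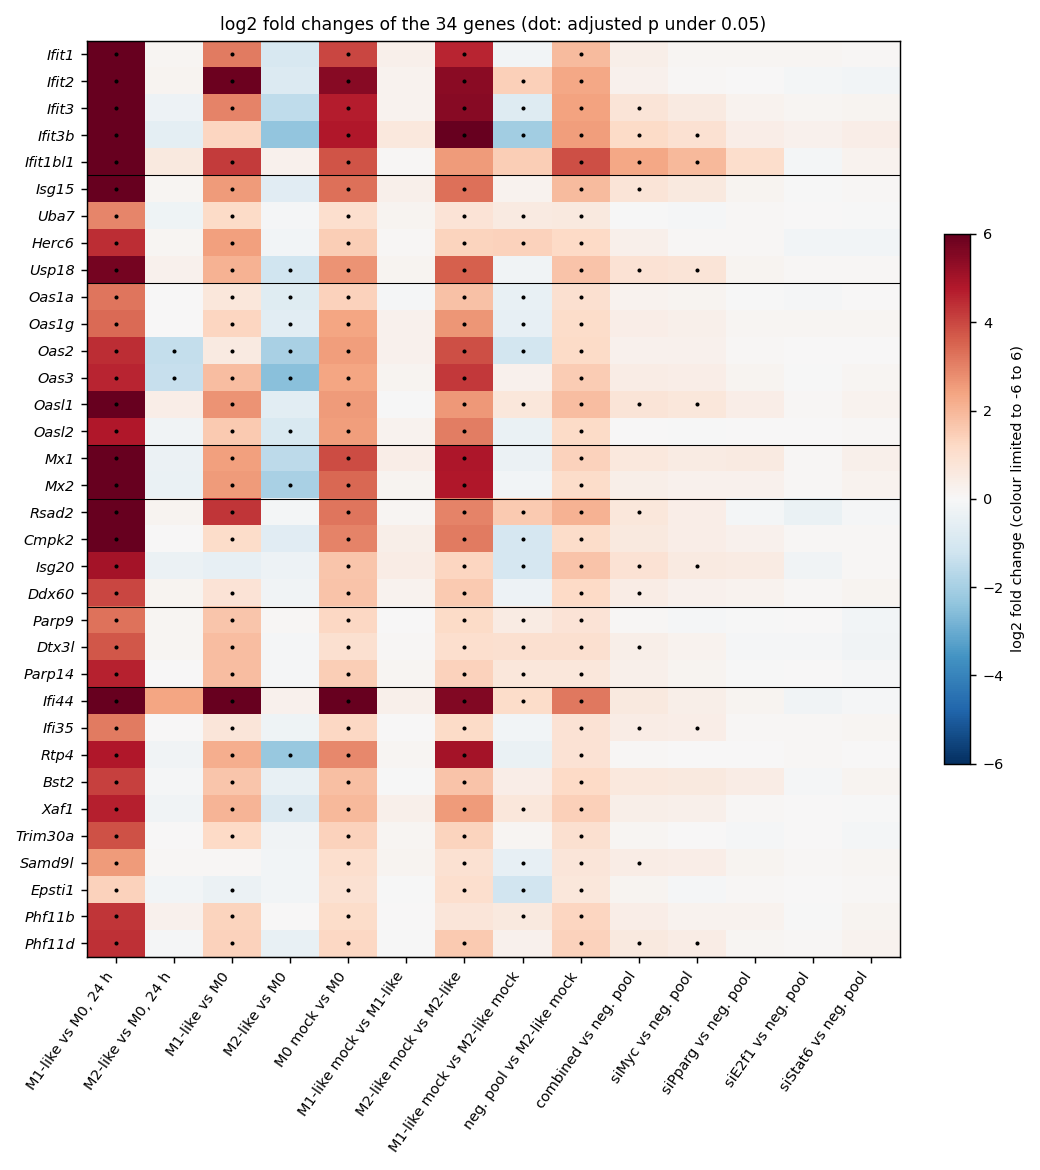
log2 fold changes (colour, limited to -6 to 6) of the 34 genes (rows, grouped by role) in 14 comparisons (columns), with a dot where the adjusted p was below 0.05. The columns for M0 mock against M0 and for negative control siPool against M2-like mock are red with dots in 34 of 34 rows, and the column for M1-like mock against M1-like has no dot.

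Among mock-transfected cells, M1-like macrophages did not stand above M0 and M2-like macrophages for most of the genes. Between M2-like mock and M0 mock edgeR called 0 genes and DESeq2 1 (2.19% and 1.64% of all genes were called higher and lower). An unadjusted p below 0.05 was reached by 16 genes. All 34 log2 fold changes were negative, with a median of -0.35 beside -0.003 over all genes. The shares of all genes with such a p or sign are not given here. M0 mock replicate 3 was the highest library of its condition in 34 genes and M2-like mock replicate 1 the lowest in 33. The 34 signs are thus not independent of each other. Without M0 mock replicate 1 edgeR called 9 genes lower, and without M2-like mock replicate 3 it called 3. Both conditions are those whose replicates varied most.

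Between M1-like mock and M2-like mock 11 genes were higher and 9 were lower, or 32.4% and 26.5% of the 34. Of all genes 30.9% and 29.8% were called, so the counts were near the background and are no result about the antiviral genes as a group, and the median log2 fold change was -0.02. The single genes are given for their values. Higher were Parp9, Dtx3l and Parp14, a group of ADP-ribosyltransferases and their ubiquitin ligase partner, together with Uba7, Herc6, Rsad2, Ifit2, Oasl1, Ifi44, Xaf1 and Phf11b. Lower were Ifit3, Ifit3b, Oas1a, Oas1g, Oas2, Cmpk2, Isg20, Samd9l and Epsti1.

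Rsad2 stood at 89.8, 147 and 146 CPM in M2-like mock and 399, 379 and 346 CPM in M1-like mock (log2 fold change 1.55 ± 0.19 (SE), adjusted p = 3.21e-08), whereas its neighbour Cmpk2, a mitochondrial nucleotide kinase, stood at 47.4, 78.9 and 102 CPM and 27.6, 46.4 and 40.3 CPM (log2 fold change -0.999 ± 0.27 (SE), adjusted p = 0.00195). These 2 genes lie side by side on chromosome 12 and moved in opposite directions. Within the IFIT cluster, Ifit2 was higher in M1-like mock, from 57.6, 167 and 157 CPM to 329, 357 and 355 CPM (log2 fold change 1.45 ± 0.31 (SE), adjusted p = 0.000149), and Ifit3b was lower, from 3.9, 8.76 and 11.2 CPM to 1.36, 1.77 and 2.55 CPM (log2 fold change -2.07 ± 0.45 (SE), adjusted p = 0.000205). Epsti1 stood at 41.7, 54.1 and 51.6 CPM and 21.5, 22.1 and 22.8 CPM (log2 fold change -1.15 ± 0.13 (SE), adjusted p = 8.64e-09). Herc6 rose from 55.1, 76.4 and 73.2 CPM to 169.9, 185 and 172 CPM (log2 fold change 1.36 ± 0.14 (SE), adjusted p = 3.99e-10). Isg15, Ifit1, Usp18, Mx1 and Mx2 had overlapping libraries and no call. Markers of other cells were lower in M1-like mock too, namely 5 of 6 mesothelial and fibroblast markers (summed 87.5 to 148.9 CPM in M2-like mock and 11.4 to 21.5 CPM in M1-like mock), 4 of 4 B cell markers (6.55 to 11.6 and 0.979 to 2.36 CPM) and 3 of 8 eosinophil and mast cell markers (20.4 to 21.3 and 0.933 to 1.45 CPM). Of the 8 macrophage markers 6 were lower and 1 higher (14840 to 16100 and 6448 to 7490 CPM). Their part in the result was not tested.

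**Figure D4:**
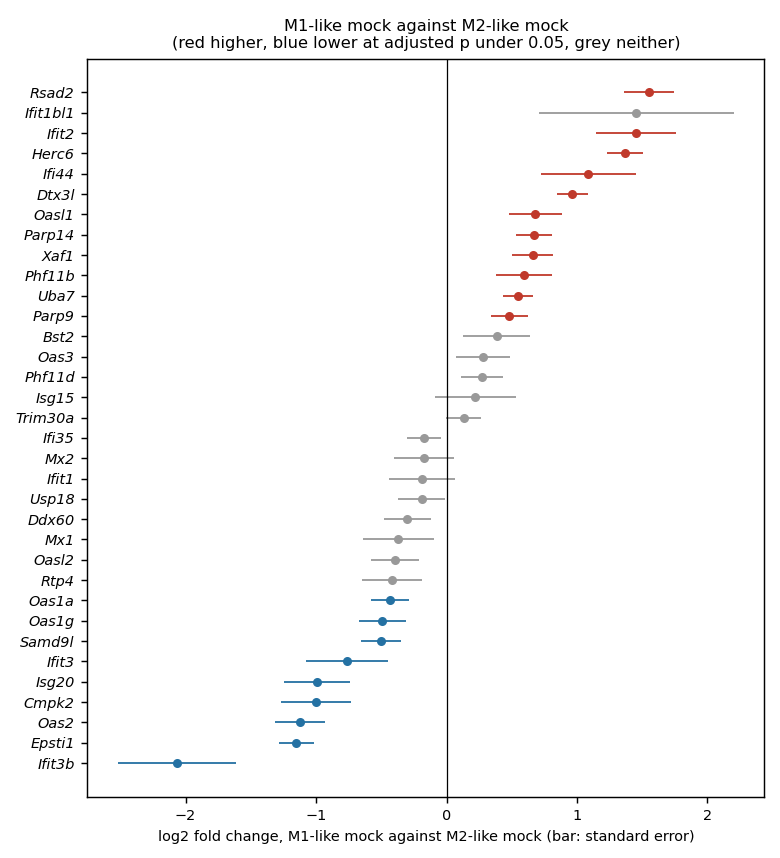
log2 fold change of M1-like mock against M2-like mock (x axis) for each of the 34 genes (y axis), with standard errors from the fit to 36 libraries. The genes run from Ifit3b at -2.07 to Rsad2 at 1.55, with 11 called higher (red) and 9 called lower (blue).

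Against M0 mock, 7 genes were higher in M1-like mock (Uba7, Herc6, Rsad2, Parp9, Dtx3l, Parp14 and Xaf1) and 17 were lower (30.3% and 30% of all genes), with a median log2 fold change of -0.44. Oas2 stood at 63.5, 93.3 and 109 CPM in M0 mock and 23.8, 29.3 and 27.2 CPM in M1-like mock (log2 fold change -1.73 ± 0.19 (SE), adjusted p = 3.24e-09), without overlap. Isg20 stood at 7.5, 11.3 and 14 CPM and 3.75, 2.95 and 3.54 CPM (log2 fold change -1.69 ± 0.24 (SE), adjusted p = 3.18e-07). Dtx3l stood at 44.7, 51.4 and 71.4 CPM and 96, 116 and 101 CPM (log2 fold change 0.91 ± 0.12 (SE), adjusted p = 9.01e-08). Both comparisons share the M1-like mock libraries, so that the 2 splits are not independent of each other.

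The negative control siPool, whose sequences are meant to target no gene, was the next condition in order, with antiviral genes above the mock level of M2-like cells. All 34 genes were higher than in M2-like mock (6.67% of all genes were called higher and 5.03% lower), with a median log2 fold change of 1.22, or 2.32-fold. Every negative control library lay above every mock library for each of the 34 genes (16.1% of all genes). Untransfected M2-like, mock and negative control libraries thus formed 3 steps without overlap in 34 of 34 genes, an order that 3.3% of all genes showed.

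Ifit1bl1 made the largest step, from 0.384, 1.26 and 0.906 CPM in mock to 7.7, 12 and 16.8 CPM in negative control libraries (log2 fold change 3.85 ± 0.59 (SE), adjusted p = 2.62e-05). Ifi44 rose from 2.62, 11.8 and 6.07 CPM to 55, 59.5 and 65.7 CPM (log2 fold change 3.15 ± 0.34 (SE), adjusted p = 1e-07). Rsad2 rose from 89.8, 147 and 146 CPM to 525, 536 and 575 CPM (log2 fold change 2.09 ± 0.20 (SE), adjusted p = 1.03e-08). The negative control libraries of Rsad2 lay close together, while mock replicate 1 was lower than the other 2. Isg15 rose from 21.1, 34.6 and 38 CPM to 109, 110.5 and 133 CPM (log2 fold change 1.92 ± 0.30 (SE), adjusted p = 4.25e-05), and Usp18 from 29.1, 45.1 and 45 CPM to 132, 128 and 134 CPM (log2 fold change 1.73 ± 0.17 (SE), adjusted p = 3.24e-08). The smallest step was that of Uba7, from 54.2, 75.7 and 81.8 CPM to 102, 106 and 111 CPM (log2 fold change 0.59 ± 0.12 (SE), adjusted p = 0.000515).

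Compared with the M1-like cells of the same experiment, negative control libraries lay above all untransfected M1-like libraries in 31 of 34 genes (31.2% of all genes) and above all M1-like mock libraries in 30 (32.4% of all genes). Beside the step from mock to negative control, other markers differed without overlap: mesothelial and fibroblast markers summed to 87.5 to 148.9 CPM in mock and 151.5 to 221.8 CPM in negative control libraries, and macrophage markers to 14840 to 16100 CPM and 12510 to 13560 CPM. The eosinophil and mast cell list summed to 20.4 to 21.3 CPM in mock and 35.9 to 40.3 CPM in negative control libraries, with 7 of its 8 genes below 1 CPM in both. Their part in the result was not tested.

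**Figure D5:**
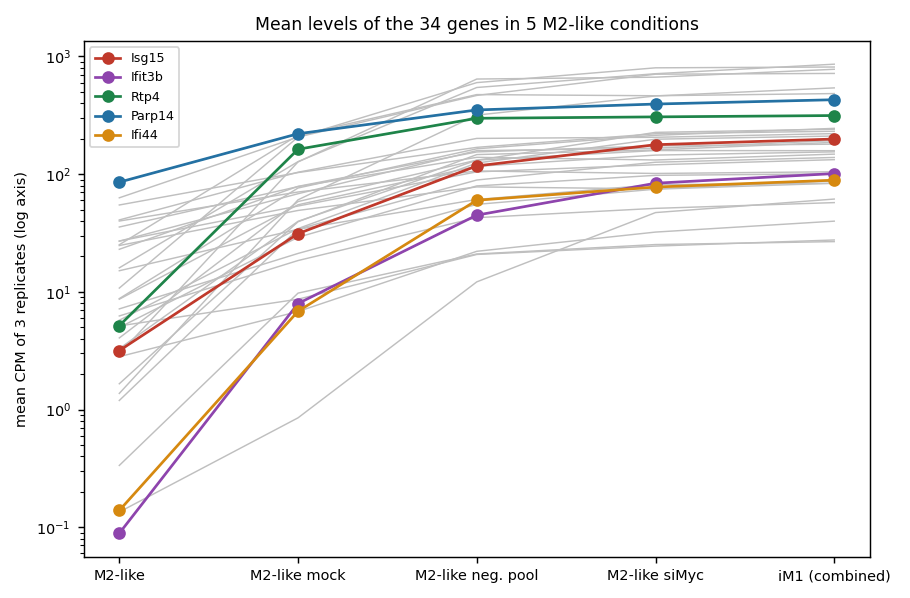
Mean CPM of 3 replicates (y axis, log scale) of each of the 34 genes (lines) in untransfected M2-like, M2-like mock, negative control siPool, Myc siPool and iM1 macrophages (x axis), with 5 genes in colour. From the untransfected to the mock and from the mock to the negative control condition 34 of 34 lines rise, and the last steps are smaller.

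Knockdown was compared with the negative control siPool, which carries siRNA as well. In iM1 macrophages 13 genes were higher and 0 lower (12.5% and 13.9% of all genes), with a median log2 fold change of 0.42, or 1.33-fold. The 13 genes were Ifit3, Ifit3b, Ifit1bl1, Isg15, Usp18, Oasl1, Rsad2, Isg20, Ddx60, Dtx3l, Ifi35, Samd9l and Phf11d. For 25 of the 34 genes all iM1 libraries lay above all negative control libraries (22.1% of all genes). Without iM1 replicate 3 edgeR called 7 genes, and without negative control replicate 1 or replicate 2 it called 8. With only the 2 compared conditions in the model it called 28. The shares of all genes above belong to the main fit, and those of this fit are not given here.

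Ifit1bl1 rose from 7.7, 12 and 16.8 CPM in negative control to 45.5, 50.7 and 88.2 CPM in iM1 libraries (log2 fold change 2.33 ± 0.36 (SE), adjusted p = 1.28e-05). Ifit3b rose from 41, 38.2 and 55.4 CPM to 96, 74.5 and 133 CPM (log2 fold change 1.17 ± 0.27 (SE), adjusted p = 0.00134). Usp18 rose from 132, 128 and 134 CPM to 238, 207 and 278 CPM (log2 fold change 0.88 ± 0.17 (SE), adjusted p = 0.000151). iM1 replicate 3 was the highest library in all 3 genes. Isg15 stood at 109, 110.5 and 133 CPM and 169.5, 151 and 276 CPM (log2 fold change 0.76 ± 0.28 (SE), adjusted p = 0.0447), and Rsad2 at 525, 536 and 575 CPM and 862, 701 and 1016 CPM (log2 fold change 0.66 ± 0.19 (SE), adjusted p = 0.00891). Ifit1 at 178, 154 and 227 CPM, Oas2 at 165, 158 and 153 CPM and Mx1 at 135, 124 and 158 CPM in iM1 libraries were not called, with log2 fold changes of 0.34, 0.27 and 0.64.

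Of the single knockdowns, that of Myc had 7 genes called higher and 0 lower than the negative control (13.9% and 15.6% of all genes). The median log2 fold change was 0.31. The 7 were 20.6% of the 34, not far above the share of all genes. This count is thus no result about the antiviral genes as a group. The 7 genes were Ifit3b, Ifit1bl1, Usp18, Oasl1, Isg20, Ifi35 and Phf11d. Usp18 reached 219, 200.3 and 261 CPM (log2 fold change 0.79 ± 0.17 (SE), adjusted p = 0.00047) and Ifit1bl1 33.2, 39.3 and 69 CPM (log2 fold change 1.95 ± 0.36 (SE), adjusted p = 0.000126). Without Myc replicate 3, which was the highest library in both, 2 genes were called, and without negative control replicate 2 there were 4. With only the 2 compared conditions in the model there were 20, in a fit whose shares of all genes are not given here. The comparisons with iM1 and Myc siPool share their control libraries, so the genes called in both are no independent observation.

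The siPools against Pparg, E2f1 and Stat6 gave 0 called genes each against the negative control with edgeR and 0 with DESeq2. The share of all genes called higher was 2.71%, 0.261% and 0.466%, and of those called lower 3.03%, 0.649% and 1.04%. A count of 0 of 34 is near these shares. An unadjusted p below 0.05 was reached by 4, 1 and 0 of the 34 genes. Other edgeR fits did call some: for Pparg 6 higher without the filter on low counts, 4 with only the 2 compared conditions in the model and 2 with the replicate block, and for E2f1 1 lower in each of the first 2 of these fits. The median log2 fold changes were 0.13, 0.03 and 0.07. Isg15 stood at 127, 113 and 150.4 CPM with the Pparg siPool, 96.1, 124 and 129 CPM with the E2f1 siPool and 89, 116 and 167 CPM with the Stat6 siPool. Against M2-like mock, in contrast, each of the 5 knockdown conditions had 34 genes called higher, as the negative control had (19% of all genes for iM1, 19.8% for Myc, 9.59% for Pparg, 6.31% for E2f1 and 6.13% for Stat6 were called higher, and 18.1%, 18.9%, 7.63%, 5.32% and 5.33% lower). The median log2 fold changes against mock were 1.68 in iM1, 1.5 for Myc, 1.46 for Pparg, 1.23 for E2f1 and 1.37 for Stat6, beside 1.22 for the negative control. All of these comparisons share the mock libraries.

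iM1 macrophages were also compared with M1-like mock macrophages, which had received the reagent but no siRNA. In iM1 cells 31 genes were higher and 0 lower (27.2% and 25.6% of all genes), with a median log2 fold change of 1.68, or 3.21-fold. Ifit3b stood at 1.36, 1.77 and 2.55 CPM in M1-like mock and 96, 74.5 and 133 CPM in iM1 libraries (log2 fold change 5.75 ± 0.38 (SE), adjusted p = 3.61e-14). Isg15 stood at 35.2, 34.9 and 38.9 CPM and 169.5, 151 and 276 CPM (log2 fold change 2.45 ± 0.30 (SE), adjusted p = 3.83e-08), and Oas2 at 23.8, 29.3 and 27.2 CPM and 165, 158 and 153 CPM (log2 fold change 2.56 ± 0.19 (SE), adjusted p = 1.03e-12). Uba7, Herc6 and Parp14 were not called, with log2 fold changes of 0.02, 0.14 and 0.29. In 31 of 34 genes the highest mean CPM of the reprogramming experiment was that of iM1 macrophages, and in 28 the lowest was that of untransfected M2-like macrophages. The shares of all genes with these extremes are not given here, so the 2 counts describe the 34 genes and set them apart from no others.

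The interferon genes themselves were hardly read. The 10 Ifna genes in the files had 3 reads in all over 45 samples. Ifnb1, coding for interferon-β, had 0 reads in untransfected M0 and M2-like cells of both experiments, and 2, 2 and 18 reads in M1-like cells of mice 1, 2 and 3 at 24 h, too few for the filter. In the reprogramming experiment it had 1, 0 and 1 reads in M0 mock, 0, 0 and 0 in M2-like mock, 1, 0 and 0 in M1-like and 2, 0 and 0 in M1-like mock cells. Negative control libraries had 0, 1 and 4 reads. The Myc siPool libraries had 12, 13 and 30 reads and the iM1 libraries 15, 9 and 24, while those of Pparg had 3, 4 and 4, those of Stat6 4, 1 and 4 and those of E2f1 0, 1 and 1. Against the negative control Ifnb1 was called higher with the Myc siPool (log2 fold change 3.22 ± 0.72 (SE), adjusted p = 0.00134) and in iM1 cells (3.15 ± 0.73 (SE), adjusted p = 0.00214). Against the M2-like mock libraries, at 0 reads, it was at least 14.5-fold higher with the Myc siPool and at least 14-fold higher in iM1 cells, with a floor of 3 reads over the 3 mock libraries. Ifnb1 was thus at 0 reads in M2-like mock, where the antiviral genes already stood above untransfected cells. The floor covers counting error of the mock libraries only. Reads of the Myc siPool and iM1 libraries entered as counted, without their own counting error or the spread between libraries. Such counts also say nothing of interferon made before harvest. Ifng was read 11, 25 and 26 times in the M1-like samples at 24 h and 70 times over all samples.

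Irf7, Stat2 and Irf9, transcription factors of the pathway, were higher at the mock and negative control steps too. Irf7, which drives the interferon-α genes and is itself interferon-induced, stood at 10.3, 8.31 and 7.67 CPM in M2-like, 121, 285 and 241 CPM in M2-like mock and 834, 849.8 and 882 CPM in negative control libraries. Its log2 fold change was 4.62 ± 0.39 (SE), adjusted p = 2.88e-10 from untransfected to mock, and 1.99 ± 0.32 (SE), adjusted p = 4.3e-05 from mock to negative control. Stat2 stood at 28, 31.8 and 25.3 CPM, 65, 112 and 105 CPM and 166, 185 and 205 CPM in the same order (log2 fold changes 1.72 ± 0.17 (SE), adjusted p = 6.18e-09, and 0.98 ± 0.16 (SE), adjusted p = 4.3e-05). Irf9 was called higher at both steps, by 1.26 ± 0.09 (SE), adjusted p = 5.21e-12 and 0.46 ± 0.08 (SE), adjusted p = 0.00028. In iM1 against negative control cells, Stat2 (0.61 ± 0.15 (SE), adjusted p = 0.00336) and Irf9 (0.23 ± 0.08 (SE), adjusted p = 0.0407) were called higher, while Irf7 (0.32 ± 0.30 (SE), adjusted p = 0.47) was not.

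Between M1-like mock and iM1 macrophages transcription factors of the pathway differed in both directions. Irf9 stood at 65.2, 74.6 and 71.2 CPM in M1-like mock and 147, 135 and 131 CPM in iM1 libraries, higher in iM1 (log2 fold change 0.97 ± 0.08 (SE), adjusted p = 2.48e-11). Irf1, a factor known to be induced by IFN-γ, was lower in iM1 cells (log2 fold change -3.04 ± 0.13 (SE), adjusted p = 4.64e-19), and so was Socs3, an inhibitor of cytokine receptor signalling (-3.62 ± 0.44 (SE), adjusted p = 3.73e-08). At 24 h in the polarization experiment Irf7 had risen in M1-like cells from 16.6, 19.1 and 21.1 CPM to 2017, 2052 and 2496 CPM (log2 fold change 6.85 ± 0.15 (SE), adjusted p = 2.55e-12), and Socs1, the feedback inhibitor of the JAK kinases, by 8.81 ± 0.20 (SE), adjusted p = 2.71e-12. In M2-like cells at 24 h Irf7 was lower than in M0 (-0.93 ± 0.13 (SE), adjusted p = 0.000286), and Socs1 was higher (3.51 ± 0.21 (SE), adjusted p = 6.29e-07).

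Of the 54 other genes of the pathway found in the files (interferons, receptors and kinases, transcription factors, sensors of nucleic acid and LPS listed with adaptors and further genes, and feedback inhibitors), 38 passed the filter in the reprogramming experiment, and the 16 that did not were interferon genes. Of the 38, 19 were higher and 1 lower in M0 mock against M0 (50% and 2.63%, beside 11.7% and 8.66% of all genes), 13 higher and 0 lower in M2-like mock against M2-like (34.2% higher, beside 1.67%), and 0 in either direction in M1-like mock against M1-like. In negative control against mock 21 were higher and 2 lower (55.3% and 5.26%, beside 6.67% and 5.03% of all genes). Among them were 14 higher and 1 lower of the 17 genes in the list of sensors, adaptors and further genes. The highest log2 fold change after that of Irf7 was that of Zbp1, a sensor of Z-form nucleic acid (1.86 ± 0.29 (SE), adjusted p = 4.12e-05), and the lower genes were Ifngr1, a chain of the IFN-γ receptor (-0.41 ± 0.07 (SE), adjusted p = 0.000239), and Mavs, the adaptor of the RNA sensors (-0.28 ± 0.09 (SE), adjusted p = 0.0467). Of the 7 receptors and kinases 1 was higher and 1 lower at that step. In iM1 against negative control cells 8 pathway genes were higher and 6 lower (21.1% and 15.8% of those tested, beside 12.5% and 13.9% of all genes, so the share lower was near that of all genes), the lowest being Tlr9 (-0.73 ± 0.18 (SE), adjusted p = 0.00317) and Irf8 (-0.36 ± 0.08 (SE), adjusted p = 0.00087).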

How the data were processed

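RNA sequencing of 54 libraries was used, 18 of the polarization experiment (reads of 50 nt) and 36 of the reprogramming experiment (reads of 150 nt). The authors deposited raw read counts per gene, made with Trimmomatic for trimming, TopHat2 for alignment to GRCm38/mm10 and featureCounts for counting. Versions, annotation, strand setting and the handling of reads with several matches are not given in the sources used here. Conditions were taken from the labels. Technical replicates of 1 mouse differed by little more than sampling noise (chi-square per gene 1.07 to 1.09, against 5.54 to 89.7 between mice) and were summed. Identifiers were matched to GENCODE M21, which named 37607 of 39179.

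Genes were filtered with filterByExpr (minimum count 10, minimum total 15), which left 16110 and 14172 genes, normalized with TMM and tested (two-sided) with the quasi-likelihood test of edgeR 4.0.16 in R 4.3.3, in 1 model per experiment, with Benjamini-Hochberg adjustment. DESeq2 1.42.0, which the study used, was an alternative. Standard errors were derived from the log2 fold change and the F statistic (its root gives the size of the change in standard errors). The scripts were tested on simulated data. The 34 genes and the pathway and marker lists were chosen with earlier results of these data known. Any of the 34 genes could be named. Values in every sample were to be given for Isg15, Ifit1, Rsad2, Mx1, Oas2 and Usp18, and per comparison for the 3 largest and the 3 smallest called changes without overlap and with a mean of at least 1 CPM. Of the pathway list the 2 largest called changes in each direction, and always a few fixed genes, among them Ifnb1, Stat2, Irf7 and Irf9, were to be named; 1 item is not reported here. The text shows a selection of these, and Cmpk2, Uba7, Herc6, Dtx3l and some further genes were shown after their values had been seen. Ifna6, Ifna11 and Ifnab were not analysed here. Alternatives were other size factors, DESeq2, other filters, the compared groups alone, the replicate as a block, and each replicate left out. In the polarization experiment the labels name the mouse, so equal numbers pair the samples (median correlation of deviations from the condition means 0.25 over 9 pairs, against -0.14 for other pairs).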

Additional observations from a re-analysis of the deposited data

Results flagged for a closer look

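The effect of mock transfection differed between polarization states by the test of the difference itself. It was smaller in M1-like than in M0 macrophages for 33 of the 34 genes (30 to 33 called with 1 library left out). It was larger in M2-like than in M0 macrophages for 3 genes (Oas2, Oas3 and Rtp4), or 8.82% of the 34, a small count that ran from 2 to 5 with 1 library left out. These 3 genes were called lower in untransfected M2-like than in M0 cells, and were not called between M2-like mock and M0 mock. The shares of all genes called in the same directions stand beside the values above.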

How the results depend on the processing

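Of 345 counts of called antiviral genes under alternatives, 317 stayed within 1.5 times the main count. Shares of all genes under the alternatives are not given here, so these counts cannot be set against the shares of the main fit. M2-like against M0 in the polarization experiment (2 genes) gave 7 with DESeq2, 7 without a filter on low counts, 6 with the replicate block, 11 with technical replicates as separate samples and 2 to 4 with 1 sample left out. In the reprogramming experiment, without a filter on low counts there were 19 genes in M2-like against M0 (9), 18 in M2-like mock against M0 mock (0), 26 in iM1 against negative control (13), 19 for Myc (7), 6 for Pparg (0), 1 for E2f1 (0), and 8 in the difference of the mock effects between M2-like and M0 cells (3). With only the compared groups in the model there were 28 in iM1, 20 for Myc, 4 for Pparg and 1 for E2f1 against the negative control. M2-like mock against M0 mock gave 1 with DESeq2. With 1 library left out the counts ran from 0 to 9 for M2-like mock against M0 mock, 7 to 13 for iM1, 2 to 7 for Myc and 2 to 5 for the difference of the mock effects. The cause was not tested.

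The replicate block gave 5 genes in M2-like mock against M0 mock, 11 for Myc and 2 for Pparg, and left the other counts of the reprogramming experiment within 1.5 times. There the labels share only numbers: the deviations of same-numbered libraries correlated by -0.25 to 0.63 (median 0.18 over 198 pairs, 131 above 0.1), and 34 of 36 libraries correlated best with their own number, a hint from the data and not from the design. Of 2831 alternative log2 fold changes of the genes named in each comparison, 31 lost and 55 gained a call, and 0 changed direction. Depth limits Ifnb1, Ifi44, Ifit1bl1 and Ifit3b, which had few reads in untransfected cells.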
